A study of Mus musculus with 6 samples.

Results

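The antigen receptor gene segment clusters are the stretches of the mouse genome that hold the variable, joining and constant segments of antibodies and T cell receptors. Their members here are the MBD2 peaks in 4 windows on mm9. The heavy chain window runs from 114.40 to 117.30 Mb on chromosome 12, the kappa chain window from 67.50 to 70.70 Mb on chromosome 6, the T cell receptor alpha and delta window from 53.00 to 54.90 Mb on chromosome 14, and the T cell receptor beta window from 40.80 to 41.60 Mb on chromosome 6. Together they span 8.80 Mb. They held 130 of 85797 peaks in hematopoietic stem cells (HSC), 94 of 50638 in common myeloid progenitors (CMP) and 49 of 27839 in erythroblasts (ERY), red cell precursors that still have a nucleus. Merged over the 3 lists, these made 144 of 87514 regions.

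An MBD2 peak is a stretch of DNA enriched by a protein that binds methylated CpG sites. All 3 libraries came from female C57BL/6 mice, an inbred strain, and none of the groups carries a stated mutation or drug. HSC were sorted from the bone marrow of adult animals as lineage-negative, Sca-1 positive, c-kit positive cells, and CMP as lineage-negative, Sca-1 negative, c-kit positive cells. The lineage depletion used antibodies to CD4, CD8a and CD45R among others, so that mature T and B cells were targets of it. Both gates are wider than a single cell type. The sources used here do not give how the erythroblasts were obtained or how many animals were pooled. The files hold no expression, so the cell types could not be checked against markers.

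Antibody and T cell receptor genes are assembled from separate segments. In developing lymphocytes the RAG recombinase cuts beside a variable (V), a joining (J) and, in some loci, a diversity (D) segment, and the joined V region is read together with a constant (C) gene. B cells assemble the heavy and kappa chain loci, and T cells the receptor loci. Myeloid and erythroid cells do not normally recombine them, and the unrearranged segments are generally methylated outside the lymphoid lineage. In the RefSeq gene order (GRCm38), the heavy chain locus lists 183 V, 20 D, 4 J and 8 C genes, and the kappa chain locus 162 V, 5 J and 1 C gene. The alpha and delta locus lists 130 V alpha, 6 V delta and 60 J alpha segments, and the beta locus 35 V, 2 D, 14 J and 2 C genes. The constant genes lie at the low-coordinate end of the heavy chain window and at or near the high-coordinate end of the other 3. Peaks could not be placed on single segments, because the gene positions at hand belong to another build. The window edges can hold neighbours. In gene order Tmem121, Tedc1 and Crip1 follow the heavy chain constant genes, and Dad1 and Abhd4 follow the alpha constant gene. The olfactory receptor genes Olfr1507, Olfr1508 and Olfr1509 lie inside the alpha and delta locus, with Olfr1510 before its first V segment. The trypsinogen genes, such as Try4, Try5 and Prss2, lie inside the beta locus, and Ephb6 follows it.

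All 4 windows carried fewer peaks per Mb than the rest of their chromosomes at each of the 3 stages. The heavy chain window had 11.0 peaks per Mb in HSC (32 peaks), 8.28 in CMP (24) and 5.17 in ERY (15), against 30.4, 17.7 and 10.08 on the rest of chromosome 12. The kappa chain window had 18.4 in HSC (59 peaks), 12.2 in CMP (39) and 6.56 in ERY (21), against 29.6, 16.9 and 8.87 on the rest of chromosome 6. The alpha and delta window had 16.3 in HSC (31 peaks), 12.6 in CMP (24) and 6.32 in ERY (12), against 25.6, 15.1 and 8.002 on the rest of chromosome 14. The beta window had 10.0 in HSC (8 peaks), 8.75 in CMP (7) and 1.25 in ERY (a single peak). The kappa chain window was thus the densest in HSC and ERY, and the beta window the sparsest in HSC and ERY. No library was repeated, so none of these differences has a replicate check. Without the outermost 100 kb at each end, the heavy chain window held 21 HSC and 9 ERY peaks and the beta window 4 HSC and 4 CMP peaks.

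**Figure D1:**
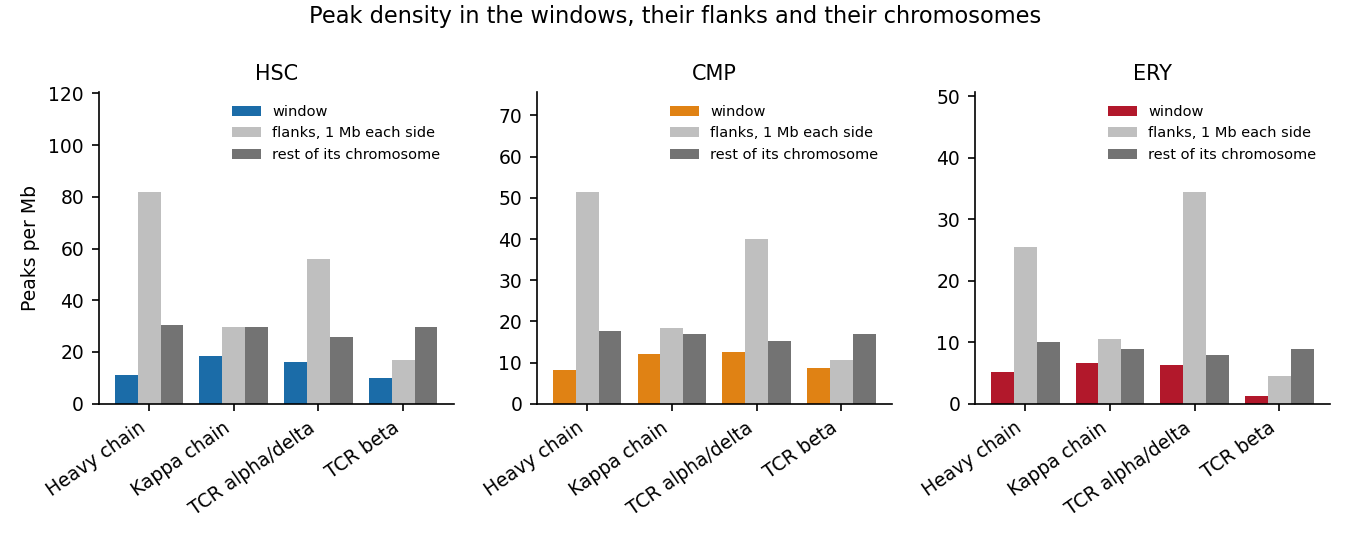
Peaks per Mb in each window (coloured bars), in the 1 Mb on each side of it (light grey) and on the rest of its chromosome (dark grey), for HSC, CMP and ERY. Each bar is 1 library, without error bars, and each coloured bar is lower than both grey bars beside it.

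The alpha and delta window lay between denser flanks, and the heavy chain window beside a dense flank on its constant gene side. The 2 flanks of 1 Mb around the heavy chain window had 82.0, 51.5 and 25.5 peaks per Mb in HSC, CMP and ERY. This mean came from the low-coordinate side, which had 146, 93 and 44 peaks. The high-coordinate side, beyond the V segments, had 18, 10 and 7, which is below the rest of chromosome 12 and still above the window. Against both sides together the window had 0.135, 0.161 and 0.203 of the flanking density. The flanks of the alpha and delta window had 56, 40 and 34.5 peaks per Mb, and the window 0.291, 0.316 and 0.183 of that. The low-coordinate side had 32, 21 and 19 peaks and the high-coordinate side 80, 59 and 50. Around the kappa chain window the flanks had 29.5, 18.5 and 10.5 peaks per Mb, close to the rest of chromosome 6. Around the beta window the flanks were themselves sparse, with 17.0, 10.5 and 4.50.

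Low density was not limited to receptor loci on these chromosomes, which were cut into consecutive tiles as long as each window for comparison. Of 38 tiles of 2.9 Mb on chromosome 12 that held an HSC peak, 7 had fewer HSC peaks than the heavy chain window, and the median tile had 59. Of 43 tiles of 3.2 Mb on chromosome 6, 14 had fewer than the kappa chain window, with a median of 88. On chromosome 14, 26 of 61 tiles of 1.9 Mb had fewer than the alpha and delta window, with a median of 40. Of 177 tiles of 0.8 Mb on chromosome 6, 34 had fewer HSC peaks than the beta window, with a median of 20. The heavy chain and beta windows thus lay in the lower part of their chromosomes' range, and the alpha and delta window closer to its middle. For ERY peaks, 31 of 61 tiles had fewer than the 12 of the alpha and delta window, whose median tile had 11, and 20 of 43 had fewer than the 21 of the kappa chain window, whose median tile had 24. These windows thus lay near the middle of the tiles in ERY, although below the mean density of their chromosomes.

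Peaks in the 2 antibody windows had lower median widths than those on the rest of the chromosomes in all 3 lists, and those in the T cell receptor windows lay on both sides. The median width in HSC was 629.5 bp in the heavy chain window (interquartile range 525 to 810 bp), 635 bp in the kappa chain window (485 to 834.5 bp) and 681 bp in the alpha and delta window (509 to 926 bp). It was 846 bp over the 8 beta peaks. Over the rest of the 3 chromosomes together it was 739 bp. In CMP the medians were 717, 706, 725 and 715 bp in the same order, against 799 bp. In ERY they were 685 bp for the heavy chain, 696 bp for the kappa chain and 808 bp for the alpha and delta window, against 778 bp, and the single beta peak was 363 bp wide. Kept peaks were wider than absent ones over the 4 windows, with HSC medians of 743 bp for peaks kept in CMP and 534.5 bp for those absent, as on the rest of the chromosomes (797 and 675 bp). The beta window differed, since its single HSC peak absent from CMP was 1347 bp wide and its 7 kept peaks had a median of 727 bp.

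A peak is called kept when it shares at least 1 bp with a peak of the later list. HSC peaks of the receptor windows were kept in CMP in 66.2% of cases (86 of 130, interval 57.3 to 74.2%). Over the whole HSC list the share kept was 57.1%, and on the rest of chromosomes 6, 12 and 14 it was 56.0% (55.0 to 56.9%). With the windows narrowed by 100 kb at each end the pooled share was 62% of 100 peaks. In widened windows it was 60.9% of 169 peaks. The excess was thus smaller with either change of the edges, and both shares stayed inside the interval of the windows as given. All 4 windows lay above the rest of their chromosome. The heavy chain window kept 22 of 32 (68.8%, 49.99 to 83.9%), the kappa chain window 37 of 59 (62.7%, 49.1 to 74.96%), the alpha and delta window 20 of 31 (64.5%, 45.4 to 80.8%) and the beta window 7 of 8 (87.5%, 47.3 to 99.7%). Each of these 4 intervals includes the value of its own chromosome, which was 56.9% on chromosome 12, 54.8% on chromosome 6 and 56.5% on chromosome 14. The 4 loci did not separate from each other at this number of peaks.

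From HSC to ERY the share kept ranged from 12.5% (beta) to 43.8% (heavy chain) with the windows as given. Over the 4 windows 40 of 130 HSC peaks were kept (30.8%, interval 23.0 to 39.5%), beside 30.9% over the whole list. The heavy chain window kept 14 of 32 (43.8%, 26.4 to 62.3%), the kappa chain window 19 of 59 (32.2%, 20.6 to 45.6%), the alpha and delta window 6 of 31 (19.4%, 7.45 to 37.5%) and the beta window 1 of 8 (12.5%, 0.316 to 52.7%). The antibody windows thus lay above the rest of chromosomes 12 (31.8%) and 6 (28.6%), and the T cell receptor windows below the rest of chromosomes 14 (29.0%) and 6. Each interval includes the value of its chromosome, and the intervals of all 4 loci overlap. With the windows narrowed by 100 kb at each end, the shares were 38.1% (heavy chain), 25% (kappa chain), 13.04% (alpha and delta) and 25% (beta, 1 of 4), so that the kappa chain fell below chromosome 6 and the order of the loci did not hold. The flanks of the alpha and delta window kept 50.9% of HSC peaks (41.3 to 60.5%), an interval that does not overlap that of the window. These flanks also lay above the rest of chromosome 14, unlike the window, whose interval includes it. Flanks of the heavy chain, kappa chain and beta windows kept 30.5, 35.6 and 26.5%. Among tiles of the same length, 2 of 38 on chromosome 12 kept a larger share than the heavy chain window, while 9 of 61 on chromosome 14 kept a smaller share than the alpha and delta window and 16 of 177 on chromosome 6 a smaller share than the beta window.

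From CMP to ERY the order of the loci was the same with the windows as given. The heavy chain window kept 13 of 24 CMP peaks (54.2%, interval 32.8 to 74.4%) and the kappa chain window 19 of 39 (48.7%, 32.4 to 65.2%). The alpha and delta window kept 8 of 24 (33.3%, 15.6 to 55.3%) and the beta window 1 of 7 (14.3%, 0.361 to 57.9%). Over the 4 windows 41 of 94 were kept (43.6%, 33.4 to 54.2%), beside 50.7% over the whole CMP list. The rest of chromosomes 12, 6 and 14 kept 52.6, 48.2 and 47.9%, and the flanks of the alpha and delta window 67.5% (56.1 to 77.6%). In windows narrowed by 100 kb at each end, the shares were 43.8% (heavy chain), 40.6% (kappa chain), 27.8% (alpha and delta) and 25% (beta). The order held there, but the heavy and kappa chain windows fell below their chromosomes. The pairs from HSC to ERY and from CMP to ERY share the ERY list, so their like order is not a second observation.

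**Figure D2:**
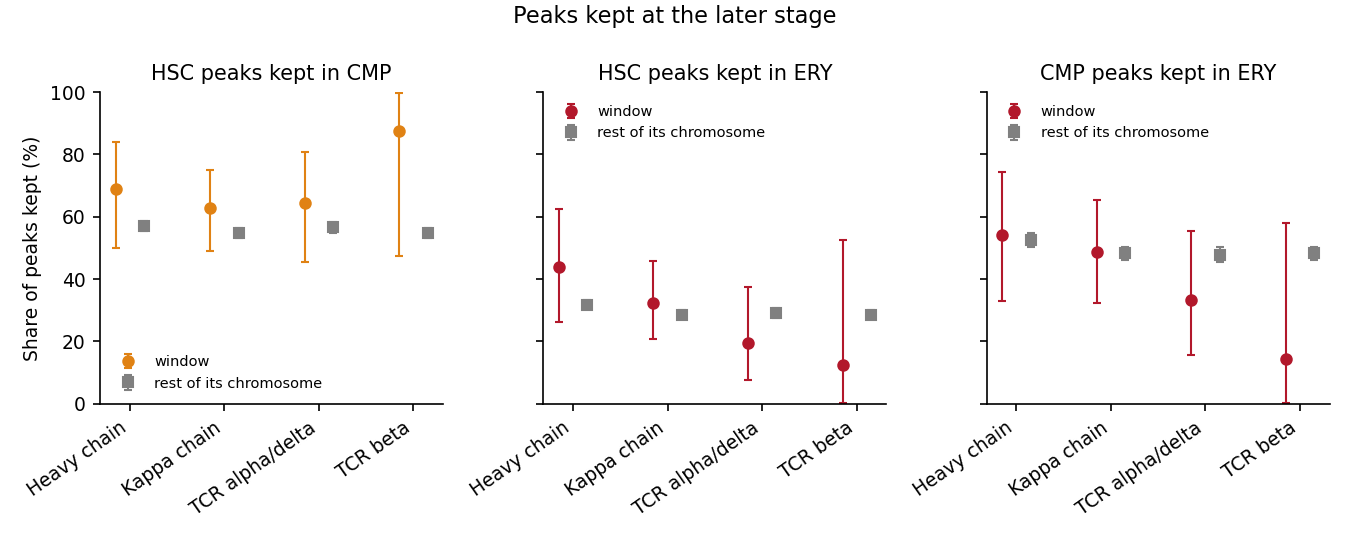
Share of peaks of the earlier list that overlap a peak of the later list, in percent, for each window (circles) and for the rest of its chromosome (grey squares), with 95% exact binomial intervals. For HSC peaks kept in ERY, the windows fall from the heavy chain to the beta locus (43.8, 32.2, 19.4 and 12.5%). Their intervals overlap, and this order did not hold in narrowed windows.

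Sorted by the lists with a peak, the 144 regions fell into 3 main classes. HSC was the single list with a peak in 43 (29.9%, interval 22.5 to 38.0%). HSC and CMP shared 47 (32.6%, 25.1 to 40.9%), and 39 had a peak at each stage (27.1%, 20.02 to 35.1%). Over all 87514 regions these shares were 40.7%, 26.4% and 28.5%. The 15 remaining regions comprised 5 in CMP alone, 7 in ERY alone, 2 in CMP and ERY, and 1 in HSC and ERY. In the heavy chain window the 3 classes held 9, 9 and 13 regions. The kappa chain window had 22, 18 and 19, and the alpha and delta window 11, 14 and 6. In the beta window 6 of 8 regions had a peak in HSC and CMP but not in ERY.

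Along the heavy chain window, peaks crowded in the outermost 100 kb at the constant gene end. The 300 kb at that end held 9 HSC, 7 CMP and 5 ERY peaks, or 30.0, 23.3 and 16.7 per Mb, against 8.85, 6.54 and 3.85 per Mb over the other 2600 kb, where the V segments lie. The 100 kb bin with the most HSC peaks was the first, from 114400001 to 114500000, with 7, 6 and 4 peaks in HSC, CMP and ERY. The bin from 114500001 to 114600000 held 1, 0 and 0, and that from 114600001 to 114700000 held 1, 1 and 1. The crowding thus came from the outermost bin. Its peaks lie at the window edge, and whether they belong to the constant genes or to the neighbouring genes could not be read from the files. The longest stretch without an HSC peak ran from 115223717 to 115861585, or 638 kb, and a CMP peak reached into its last bases. Of 29 bins of 100 kb, 13 had no peak in any list.

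The widest heavy chain peak was shared by all 3 stages and was narrower in the later lists. On chromosome 12 it spanned 114425938 to 114428752 in HSC (2815 bp), 114426085 to 114427736 in CMP (1652 bp) and 114426245 to 114427767 in ERY (1523 bp). The region at 117230913 to 117232285, near the far V end, covered 1149, 1148 and 1041 bp in HSC, CMP and ERY. Its neighbour at 117227127 to 117228171 covered 1045, 716 and 695 bp. Both stood within the outermost 100 kb of the window on that side. At the constant gene end, the region at 114441911 to 114443251 covered 1341, 1129 and 897 bp in HSC, CMP and ERY. The region at 114619018 to 114620206 had similar widths in all 3, with 1071, 1189 and 1114 bp. Regions without an HSC peak were 2 in CMP, at 116521390 to 116522158 (769 bp) and 116640664 to 116641203 (540 bp), and 1 in ERY, at 117130749 to 117131300 (552 bp), with the nearest HSC peak 95826 bp away.

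The kappa chain window was more evenly filled. Its 300 kb at the constant gene end held 6 HSC, 5 CMP and 5 ERY peaks (20, 16.7 and 16.7 per Mb), and the other 2900 kb 53, 34 and 16 (18.3, 11.7 and 5.52 per Mb). HSC density was thus much the same in both parts, while that of ERY was 3.02 times as high at the constant gene end. Most peaks of that end lay in its outermost bin, from 70600001 to 70700000, with 4 HSC, 4 CMP and 4 ERY peaks. This bin lies at the window edge and can hold neighbouring genes, such as Rpia. The 100 kb bin with the most HSC peaks, the first of 2 such bins, ran from 68100001 to 68200000 in the V part, with 5 HSC, 3 CMP peaks and 1 ERY peak. The longest stretch without an HSC peak was 198 kb, from 67653552 to 67851117, the shortest such stretch of the 4 windows. Only 8 of 32 bins of 100 kb had no peak in any list.

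The widest kappa chain peak was found at the same place in all 3 lists. On chromosome 6 it spanned 68748722 to 68750017 in HSC (1296 bp), 68748703 to 68749831 in CMP (1129 bp) and 68748706 to 68749756 in ERY (1051 bp). Near the constant gene end, the region at 70645252 to 70646446 covered 900, 1020 and 972 bp in HSC, CMP and ERY. The region at 70674387 to 70675483 covered 1068, 1097 and 790 bp. An ERY peak without an HSC counterpart stood beside it at 70676376 to 70676935 (560 bp), 893 bp from the nearest HSC peak. The region at 70380515 to 70381681 covered 909, 961 and 715 bp. Near the far V end, the region at 67613091 to 67614190 covered 1083, 944 and 855 bp. The other regions without an HSC peak were at 70237178 to 70237675 in CMP (498 bp) and at 70464538 to 70464924 in ERY (387 bp), and the narrowest was in CMP at 69610612 to 69610941 (330 bp).

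In the alpha and delta window the constant gene end was the denser part, by the largest ratio of the 4 windows in HSC and CMP but not in ERY. The 300 kb at the constant gene end held 16 HSC peaks, 13 of them kept in CMP and 4 in ERY. Densities there were 53.3, 43.3 and 13.3 peaks per Mb in HSC, CMP and ERY. The other 1600 kb, which holds most V segments, had 15 HSC peaks, 7 kept in CMP and 2 in ERY, with densities of 9.38, 6.88 and 5 per Mb. The constant gene end was thus 5.69 times as dense as the remainder in HSC, 6.30 times in CMP and 2.67 times in ERY. The ERY ratio depended on the length taken as the end, with 4.25 at 200 kb and 3.75 at 400 kb. The bin with the most HSC peaks was the last, from 54800001 to 54900000, with 8, 6 and 3 peaks in HSC, CMP and ERY. As at the heavy chain edge, it can hold neighbouring genes, here Dad1, which codes for a subunit of the oligosaccharyltransferase. The longest stretch without an HSC peak was 331 kb, from 53722110 to 54053310.

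The widest alpha and delta peak lay 343 kb from the constant gene end of the window and kept its width. On chromosome 14 it spanned 54554973 to 54556710 in HSC (1738 bp), 54555111 to 54556623 in CMP (1513 bp) and 54555111 to 54556838 in ERY (1728 bp). The region at 54789110 to 54790194 covered 1085, 467 and 918 bp in HSC, CMP and ERY. The region at 54832001 to 54832982 covered 946, 805 and 815 bp. At 54854677 to 54855684 the covered length was 764, 786 and 919 bp, and at 54305293 to 54306296 it was 701, 505 and 1004 bp. ERY was thus the widest of the 3 in the last 2 of these.

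ERY peaks of the alpha and delta window often had no HSC peak under them. This was so for 6 of 12 (50%, interval 21.1 to 78.9%), against 4.68% of the whole ERY list and 7.26% (5.69 to 9.10%) on the rest of chromosome 14. All 6 lay outside the 300 kb at the constant gene end, where the 4 ERY peaks each overlapped an HSC peak. With 400 kb taken as that end, 1 of its 6 ERY peaks had no HSC peak. The widest regions of this kind were at 54005329 to 54006207, with 751 bp in CMP and 678 bp in ERY, and at 53102307 to 53103107, with 662 bp in CMP and 801 bp in ERY. The third, at 53123195 to 53123955, had 761 bp in ERY alone. The remaining ERY peaks were at 54411319 to 54411997 (679 bp), 54596173 to 54596758 (586 bp) and 53263498 to 53263970 (473 bp). The nearest HSC peak was 3455 to 74940 bp away from these 6. Whether those near the low-coordinate end belong to V segments or to olfactory receptor genes could not be read from the files. The first of the named regions fell inside the longest stretch without an HSC peak. Of the CMP peaks of the window, 3 of 24 had no HSC peak (12.5%, 2.66 to 32.4%), against 3.54% of the whole CMP list.

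Such ERY peaks were also found beyond the edges of the alpha and delta window. With the window widened by 100 kb at each end, 11 of 19 ERY peaks had no HSC peak (57.9%), so the share did not drop at the edges. In the whole flanks of 1 Mb, 12 of 69 ERY peaks had no HSC peak (17.4%, interval 9.32 to 28.4%), with 3 of 19 on the low-coordinate side and 9 of 50 on the other. In the other windows the numbers were small, with 1 of 15 ERY peaks in the heavy chain window (6.67%, 0.169 to 31.9%), 2 of 21 in the kappa chain window (9.52%, 1.17 to 30.4%) and 0 of 1 in the beta window. Over the 4 windows 9 of 49 ERY peaks had no HSC peak (18.4%, 8.76 to 32.0%), and 3 of 37 (8.11%) without the alpha and delta window. When the comparison was limited to ERY peaks at or above the median width of the list (788 bp), 1 of 7 in the alpha and delta window had none (14.3%).

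**Figure D3:**
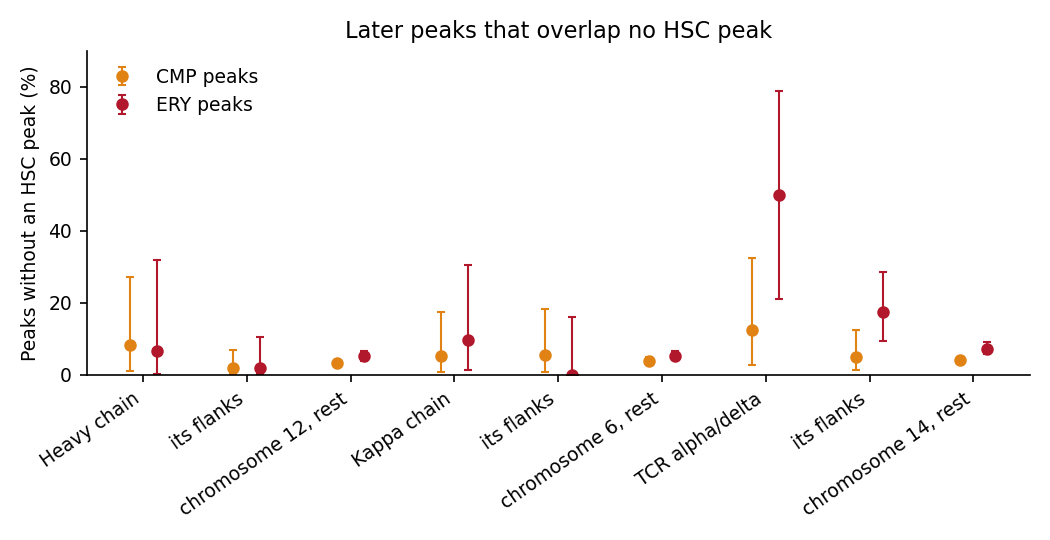
Share of CMP (orange) and ERY (red) peaks that overlap no HSC peak, in percent with 95% exact binomial intervals, for 3 windows, their flanks and the rest of their chromosomes. The ERY value of the alpha and delta window (50%) stands above that of its flanks (17.4%) and of chromosome 14 (7.26%); the beta window, with 1 ERY peak, is left out.

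The beta window had few peaks, and 1 of its 8 HSC peaks was kept in ERY. Its constant gene end of 300 kb held 6 HSC, 5 CMP and 0 ERY peaks, and the other 500 kb 2, 2 and 1. The regions were, from the constant gene end outward, at 41565546 to 41566510 (965 bp in HSC, 809 bp in CMP), 41563316 to 41564781 (1466 and 807 bp) and 41512532 to 41513878 (1347 bp in HSC, with no peak in CMP or ERY). Next came a pair at 41428407 to 41429565 (1158 and 841 bp) and 41425176 to 41425808 (633 and 506 bp). Then followed 41313258 to 41313984 (727 and 353 bp). In the outer part, the region at 41150986 to 41151442 was the only one with a peak in all 3 cell types, with 457, 373 and 363 bp in HSC, CMP and ERY. The last, at 40833679 to 40834393, covered 512 bp in HSC and 715 bp in CMP.

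The widest HSC peak of the beta window, 1466 bp, was thus among those without an ERY peak, and the region kept at all 3 stages was the narrowest of the 8 in HSC. The bin from 41500001 to 41600000 had the most HSC peaks, with 3 HSC, 2 CMP and 0 ERY peaks. This bin lies at the window edge and can hold neighbouring genes, such as Ephb6. The longest stretch without an HSC peak ran from 40834349 to 41150985, or 317 kb. With 8 HSC peaks, the shares of this window have the widest intervals of the 4.

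**Figure D4:**
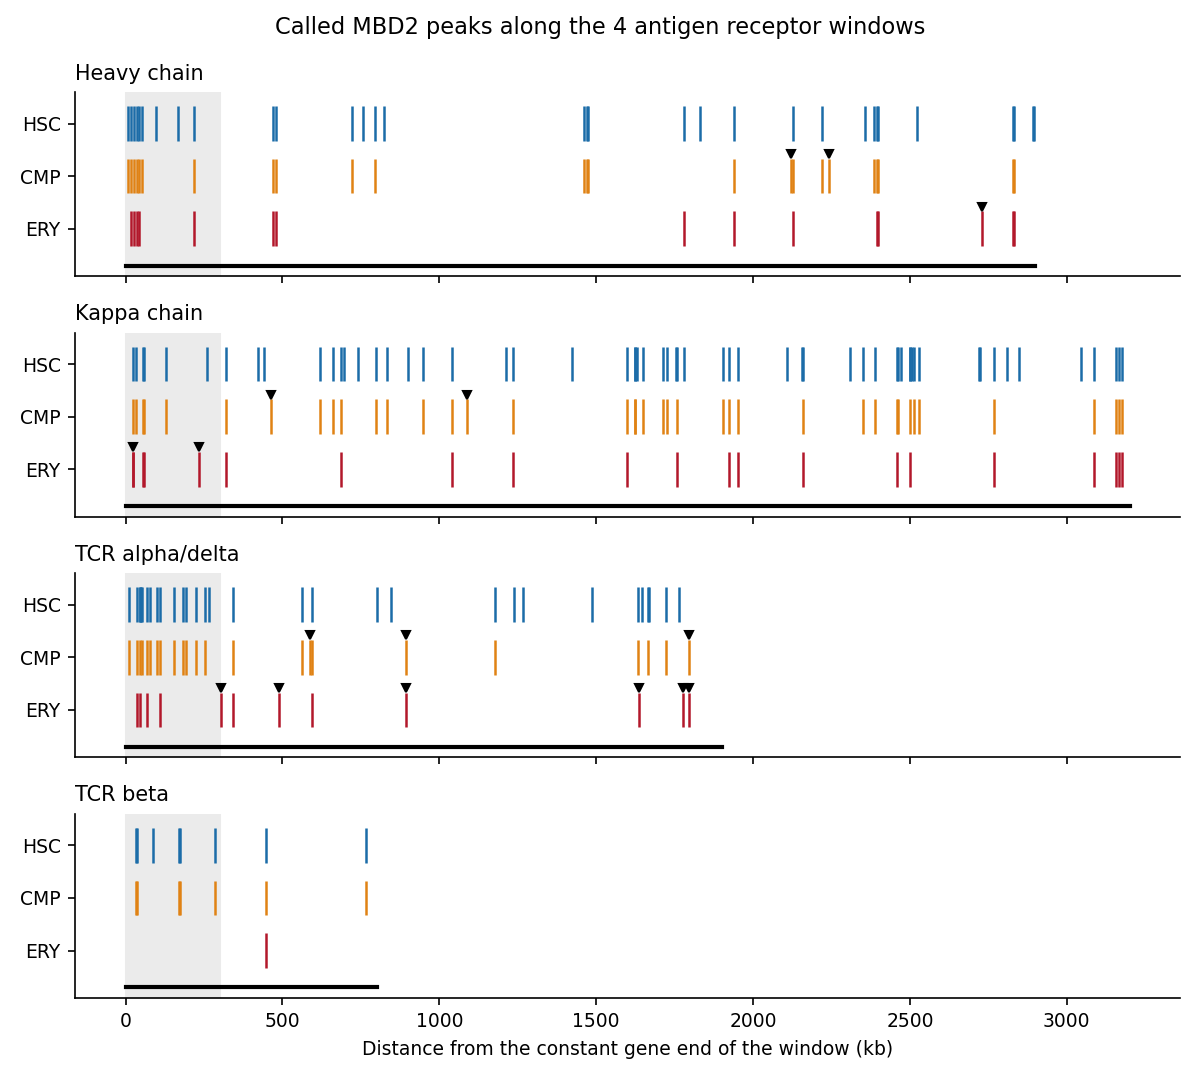
Position of every called region in the 4 windows, as distance in kb from the constant gene end of the window, with 1 row of ticks for each cell type and 1 tick for each region with a peak. The grey band marks the 300 kb at the constant gene end and the black line the extent of the window. Triangles mark CMP or ERY regions without an HSC peak, of which the alpha and delta window has 7. Its 2 regions of this kind with both a CMP and an ERY peak carry a triangle in each row.

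Where a region had a peak in all 3 cell types, its covered length was of similar size at the 3 stages. The median over the 39 such regions went from 746 bp (HSC) through 786 bp (CMP) to 757 bp (ERY). Over the whole lists it was 886, 898 and 801 bp in the same order. The ERY length was below the HSC length in 23 of 39 (59.0%), against 65.1% of all 24935 such regions. By locus this held for 7 of 13 heavy chain, 12 of 19 kappa chain, 3 of 6 alpha and delta regions and the single beta region.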

How the data were processed

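The 3 MBD2-enriched libraries were used, 1 per cell type. The 3 supernatant samples are not analysed here. Reads were 36 bp, single-end and placed uniquely, per the labels' protocols. Per the submitters' processing notes, mm9 was the build. For each cell type the authors deposited 1 list of peaks, exported by a table query per the file headers, with chromosome, start and end and no score, p-value or read number. The sources used here give neither the peak caller nor its threshold. Depth is unknown, so a stretch without a peak is a stretch without a call. This matters in variable segment clusters, which hold near-identical copies where a unique read is harder to place.

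A peak belonged to a locus if it shared at least 1 bp with the window. It was kept if it shared at least 1 bp with a peak of the later list. Peaks that overlapped or touched across the lists were merged into regions. The rest of a chromosome ran from its first to its last peak, without the 4 windows. Comparison tiles of each window's length were laid from the first base of the chromosome, leaving out those that touch a window. Shares carry 95% exact binomial (Clopper-Pearson) intervals, which take peaks as independent draws and cover no error but that of counting. With 1 library per cell type no test was run. The windows and lists were chosen with earlier results of these data known.

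The regions named for each locus are the widest peak of each list, the 5 widest regions with a peak in all 3 lists (or all of them where fewer), the 3 widest regions with a CMP or ERY peak and no HSC peak, the 100 kb bin with the most HSC peaks and the longest stretch without an HSC peak. Regions named beyond these were chosen after their values were seen, as was the count of later peaks without an HSC peak. Gene order came from a RefSeq table of GRCm38, without its coordinates. No sequence is printed, since no genome of the build of the files was used here. Alternatives covered the overlap rule, the window edges, the wider 50% of each list, merging within 500 bp, 1 kb bins, other comparison areas and 200 or 400 kb ends. Computation ran in Python 3.11.15 with scipy 1.17.1, pandas 2.3.3 and numpy 2.4.6. Overlap functions were tested on simulated data and gave the counts of bedtools 2.31.1 on the deposited lists.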

Additional observations from a re-analysis of the deposited data

How the results depend on the processing

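No paired analysis was possible because each cell type has 1 library. Of 269 recomputed values, 215 stayed inside their interval (shares) or within 1.5 times the value reported (counts, ratios, widths). A further 53 moved beyond that and 1 reversed. Only ratios to another area or part could be scored as reversed. Intervals are wide where peaks are few, so a share could change much and still stay inside. The reversal was the HSC density of the kappa chain constant gene end relative to the remainder, which was 1.09 with 300 kb and 0.942 with 400 kb. With 200 kb the same ratio for CMP was 2.21, and that of the alpha and delta window for ERY 4.25; with 400 kb the beta ratios were 3 (HSC) and 2.50 (CMP). Narrowing the windows by 100 kb at each end left 21 HSC and 9 ERY peaks in the heavy chain window. The beta window was left with 4 HSC and 4 CMP peaks, and all 4 of those HSC peaks were kept in CMP (100%). The share of HSC peaks kept in ERY became 25% in the kappa chain and beta windows and 13.04% in the alpha and delta window. Each stayed inside its interval, although the kappa chain share fell below that of its chromosome. Widening them gave 52 HSC peaks in the heavy chain and 19 ERY peaks in the alpha and delta window. Against the flanks, window density was 0.135, 0.161 and 0.203 (heavy chain; HSC, CMP, ERY; from the low-coordinate flank, with 146 HSC peaks against 18 on the other side), 0.291, 0.316 and 0.183 (alpha and delta) and 0.588, 0.833 and 0.278 (beta). In covered bases the beta window had 0.0643 of the chromosome's ERY value. The wider 50% of each list, which removes peaks by construction, left 10, 5 and 5 peaks (heavy chain), 20, 8 and 8 (kappa chain), 14, 6 and 7 (alpha and delta) and 4, 1 and 0 (beta). Shares kept from HSC to CMP were then 39.6% over the 4 windows, 35% (kappa chain), 42.9% (alpha and delta) and 25% (beta). In the beta window 0% were kept in ERY from either list, and 80% of the 5 heavy chain CMP peaks were. Regions in HSC alone, HSC and CMP, and all 3 numbered 24, 10 and 9, and in 1 kb bins 73, 76 and 61. Among the wider 50% of the later list, 5% of ERY peaks over the 4 windows and 14.3% in the alpha and delta window had no HSC peak, and 0% of CMP peaks in both. Without the alpha and delta window the ERY share was 8.11%. In the beta region with a peak in all 3 lists, widths were 457 bp (HSC) and 373 bp (CMP). Apart from changes that the construction gives, the cause was not tested.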

Other observations

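The ERY peaks without an HSC peak were not spread evenly along chromosome 14. Among 61 tiles of 1.9 Mb that held an HSC peak, the median number of such ERY peaks was 0, and 1 tile exceeded the 6 of the alpha and delta window. That tile, from 47.5 to 49.4 Mb, had 8 among 37 ERY peaks. The tile from 49.4 to 51.3 Mb had 6 among 17. Both lie within a few Mb of the window on its low-coordinate side. By share rather than number, a distant stretch of the chromosome also stood high. The tile from 91.2 to 93.1 Mb had 3 of 6 ERY peaks without an HSC peak (50%), that from 89.3 to 91.2 Mb 3 of 7 (42.9%), that from 85.5 to 87.4 Mb 2 of 5 (40%) and that from 87.4 to 89.3 Mb 4 of 12 (33.3%). A high share was thus not limited to the surroundings of the receptor window.

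The longest stretch without an ERY peak was taken for each window, but not for the rest of the chromosomes, so its length has no comparison there. The longest was 1301 kb in the heavy chain window, from 114878796 to 116179457, and held 8 HSC and 5 CMP peaks. In the alpha and delta window it was 741 kb, in the beta window 449 kb and in the kappa chain window 366 kb.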
